A study of Rattus norvegicus with 46 samples.

Results

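Of 46 arrays of rat frontal lobe, 39 could be set side by side and 4 of those carried a strong oxytocin signal; these 4 Oxt-rich pieces of tissue are compared here with the other 35, which are called Oxt-poor. The groups were selected on the measured Oxt intensity. The Oxt probe set was divided by the median intensity of the array, and a ratio of 8 or more made a piece Oxt-rich while a ratio under 2 made it Oxt-poor. Whatever separates the groups in Oxt is therefore given as a description and carries no test.

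The animals were male F344 rats aged 11 to 12 weeks. Each received a single dose of chlorpyrifos (CPF), an organophosphate that acts, once activated, as a blocker of acetylcholinesterase, or vehicle, and was killed 96 hours later. Doses were spread over 3 experiments called A, B and C, and a section of about 30 mg of frontal lobe gave the RNA for 1 Affymetrix array per animal. The Oxt-rich pieces came from 50 mg/kg animals 3 and 4 and 1 mg/kg animal 2 of experiment A and from vehicle animal 3 of experiment C. The Oxt-poor pieces of experiment A were 3 vehicle, 2 at 1 mg/kg, 5 at 10 mg/kg and 1 at 50 mg/kg. Those of experiment B were 4 vehicle, 3 at 0.5 mg/kg, 1 at 5 mg/kg and 3 at 30 mg/kg. Those of experiment C were 2 vehicle, 4 at 1 mg/kg, 3 at 5 mg/kg and 4 at 10 mg/kg. Experiment B held no Oxt-rich piece, so the comparison rests on 3 Oxt-rich against 11 Oxt-poor pieces in A and 1 against 13 in C. At 50 mg/kg 2 of the 3 kept pieces were Oxt-rich, so the highest dose and the Oxt signal partly coincide. P-values measure the spread between these arrays.

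Oxytocin is a peptide hormone made mainly by large neurosecretory neurons of the paraventricular and supraoptic nuclei of the hypothalamus, which send it to the posterior pituitary and to other brain regions. The same nuclei hold neurons that make vasopressin, encoded by Avp, the neighbour of Oxt on the chromosome. Neurons of the frontal cortex are not known as a source of oxytocin, and the hypothalamus lies below and behind the frontal lobe.

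Oxt and Avp lie on chromosome 3 of the rat assembly GRCr8, at 138235754 to 138236594 and at 138246544 to 138248522, on opposite strands and end to end, with 9.95 kb between their ends. Their promoter windows, 300 bases that run from upstream to just past the start of each gene, are shown because these 2 neighbours had the strongest signals in the comparison. The sequences are those of RefSeq. Capitals in the Oxt window, chr3:138235504-138235803 on the plus strand, mark AGGTCA or its reverse complement TGACCT, the core site of nuclear hormone receptors. Capitals in the Avp window, chr3:138248473-138248772 on the minus strand, mark CACGTG, the E-box bound by basic helix-loop-helix factors, which reads the same on both strands.
Oxt: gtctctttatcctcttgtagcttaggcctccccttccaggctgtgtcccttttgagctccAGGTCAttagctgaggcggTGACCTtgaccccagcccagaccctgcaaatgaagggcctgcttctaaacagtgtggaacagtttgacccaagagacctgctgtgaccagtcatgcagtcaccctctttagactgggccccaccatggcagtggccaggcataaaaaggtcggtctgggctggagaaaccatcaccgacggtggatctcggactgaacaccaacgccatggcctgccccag
Avp: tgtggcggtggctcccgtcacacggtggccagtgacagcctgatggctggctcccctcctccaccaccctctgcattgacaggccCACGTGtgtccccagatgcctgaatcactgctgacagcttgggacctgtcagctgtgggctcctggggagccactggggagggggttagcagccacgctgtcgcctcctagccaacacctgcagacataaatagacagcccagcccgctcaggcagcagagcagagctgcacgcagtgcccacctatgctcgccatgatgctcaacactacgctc
The Oxt window held 2 matches of its motif and the Avp window none of that motif, while 16.2% of all 33469 promoter windows held it. The Avp window held 1 match of CACGTG and the Oxt window none, against 6.42% of all windows. A match of letters is a description and not a binding site.

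Levels below are log2 normalised intensities, and the 4 Oxt-rich pieces are always given in the order A 50 mg/kg animal 3, A 50 mg/kg animal 4, A 1 mg/kg animal 2 and C vehicle animal 3. The Oxt ratio was 11.2, 16.8, 15.1 and 13.8 in the Oxt-rich pieces, against 0.110 to 1.72 in the Oxt-poor pieces. No piece fell between the limits; the member just inside had a ratio of 11.2 and the piece just outside one of 1.72. The level of Oxt was 11.61, 12.18, 12.02 and 11.73 in the Oxt-rich pieces, against a lowest of 4.78, a median of 6.31 and a highest of 8.80 in the Oxt-poor pieces. The vehicle piece of experiment C lay within the range of the 3 CPF-treated members, and the groups did not overlap.

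**Figure D1:**
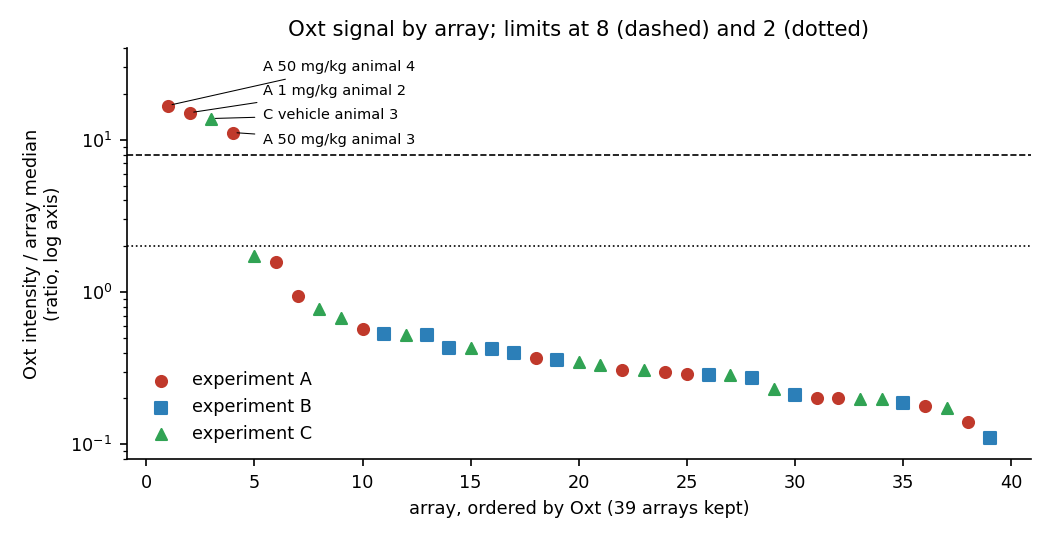
Oxt intensity divided by the array median (log axis) for each of the 39 kept arrays, in order of the ratio, with colour and marker for the experiment. The 4 Oxt-rich pieces lie at 11.2 to 16.8, above the dashed limit of 8, and the 35 Oxt-poor pieces lie at 1.72 or lower, under the dotted limit of 2.

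Array quality overlapped between the groups. Array medians were 254 to 274 in Oxt-rich and 112 to 286 in Oxt-poor arrays, and the 3′ to 5′ ratio of beta-actin was 1.25 to 1.59 in Oxt-rich and 1.23 to 4.72 in Oxt-poor arrays. Pairwise correlations among the 39 arrays were 0.935 to 0.979. Markers of neighbouring tissue stood out in some pieces. Ttr, the transthyretin of the choroid plexus, was at 8.04, 8.42, 8.19 and 13.92 in the Oxt-rich pieces, against 6.72 to 13.92 with a median of 8.15 in the Oxt-poor pieces, so the Oxt-rich vehicle piece of C alone was high among the 4, as were 5 Oxt-poor pieces. The pituitary hormones growth hormone (Gh1, 6.01 to 7.02) and prolactin (Prl, 3.43 to 5.63) were low in all 4 Oxt-rich pieces, and were high in 1 Oxt-poor piece, vehicle animal 3 of B, at 13.92 and 13.44. Slc17a7, the vesicular glutamate transporter of cortical neurons and a check of the labelled tissue, was at 11.75, 11.06, 12.34 and 12.02 in the Oxt-rich pieces, against 11.59 to 12.87 with a median of 12.39 in the Oxt-poor pieces, and the groups overlapped.

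Across the 11105 probe sets tested besides Oxt, 230 differed between Oxt-rich and Oxt-poor pieces (2.07%; limma with experiment as a term, Benjamini-Hochberg adjusted p under 0.05). Of these, 96 were higher (0.864%) and 134 were lower (1.21%). The largest rises were those of the hormone precursors Avp and Pmch, and the falls included 8 genes of cortical pyramidal neurons and 7 immediate early or activity-regulated genes. The median log2 difference over all probe sets tested was 0.0033. Without the 50 mg/kg arrays of A, 2 Oxt-rich pieces remained and 2 probe sets were called higher, those of Avp and Pmch, and 0 lower, with 611 at an unadjusted p under 0.05. With dose as a factor in the fit the counts were 3 higher and 1 lower. With log2 of dose plus 1 as a number they were 90 higher and 130 lower. The differences themselves kept their sign for all 230 probe sets without the 50 mg/kg arrays, 198 of them had an unadjusted p under 0.05 by limma, and the median size was 0.41, against 0.49 with those arrays. This smaller comparison shares 2 Oxt-rich and 34 Oxt-poor arrays with the full one and is not independent of it.

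**Figure D2:**
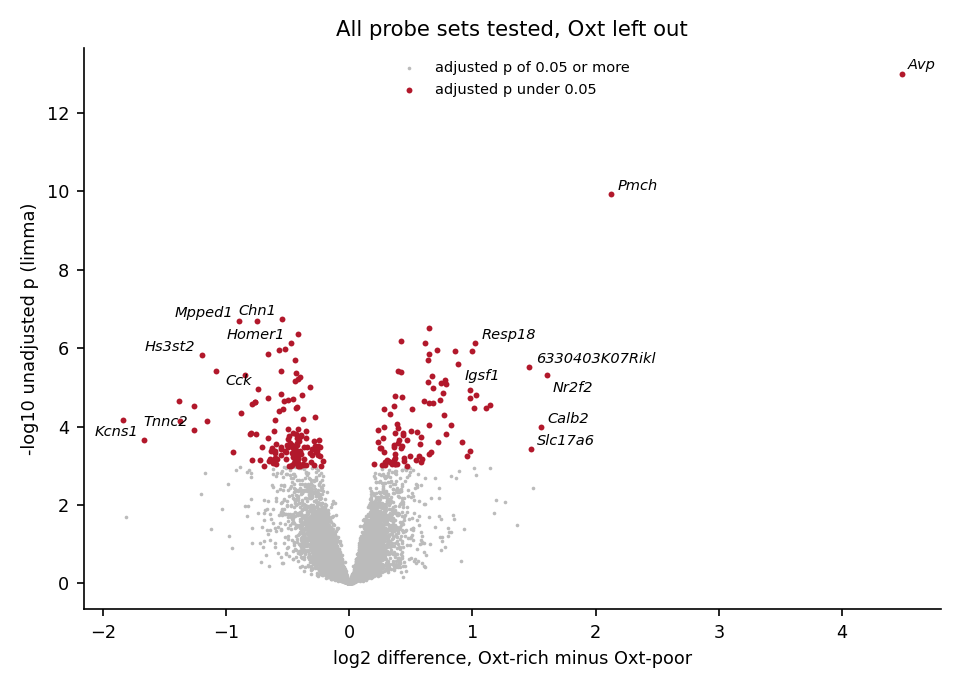
Log2 difference of Oxt-rich minus Oxt-poor pieces (x axis) against -log10 of the unadjusted limma p (y axis) for the 11105 probe sets tested, with the 230 at an adjusted p under 0.05 in red. Avp at 4.48 and Pmch at 2.13 lie apart from all other probe sets.

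Vasopressin showed the largest difference of all. Avp, which encodes the antidiuretic hormone and its carrier neurophysin, was at 12.38, 12.73, 11.38 and 11.47 in the Oxt-rich pieces, against a lowest of 5.51, a median of 7.39 and a highest of 9.93 in the Oxt-poor pieces. Every Oxt-rich piece lay above every Oxt-poor piece, with a gap of 1.45. The log2 difference was 4.48 ± 0.40 (SE), a 22.4-fold higher intensity, with an adjusted p of 1.09e-09 by limma. It was 4.59 within A and 4.21 within C. It was 4.08 ± 0.53 without the 50 mg/kg arrays (limma, adjusted p = 3.24e-05). The precursors of oxytocin and vasopressin are similar in their neurophysin part, and whether a probe set of either gene also read the other was not tested.

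Melanin-concentrating hormone, made by neurons of the lateral hypothalamus that act in feeding and sleep, also rose. Pmch was at 10.58, 11.11, 9.10 and 8.79 in the Oxt-rich pieces, against 7.17, 7.67 and 9.07 as the lowest, median and highest of the Oxt-poor pieces. The 50 mg/kg pieces stood highest, and 1 Oxt-poor piece reached above the lowest Oxt-rich one. The difference was 2.13 ± 0.25 (limma, adjusted p = 6.5e-07), with 2.52 within A and 1.12 within C. Without the 50 mg/kg arrays it was 1.27 ± 0.24 (limma, adjusted p = 0.0314).

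Galanin, a peptide that many hypothalamic neurons make beside their main transmitter, differed less. Gal was at 8.997, 8.98, 8.55 and 8.78 in the Oxt-rich pieces, against 7.74, 8.32 and 8.99 as the lowest, median and highest of the Oxt-poor pieces, and 5 Oxt-poor pieces lay above the lowest Oxt-rich one. The difference was 0.59 ± 0.16 (limma, adjusted p = 0.0391).

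Of 29 hypothalamic peptides listed beside Oxt, 24 were on the array and 15 were bright enough to test. The listed Ucn3 was counted through a synonym as Ucn2, and was not read under its own symbol. Of these 15, 3 rose and 0 fell, against 0.864% and 1.21% of all probe sets. At an unadjusted p under 0.05 by limma there were 6, 3 higher and 3 lower, against 13.5% of all probe sets. The median log2 difference of the 15 was 0.0055, against 0.0033 over all probe sets. The peptides that did not pass the limma test were Cartpt (0.43), Sst (0.19), Tac3 (0.16), Nucb2 (0.14), Adcyap1 (0.0055), Galp (-0.13), Crh (-0.13), Npy (-0.16), Prlh (-0.19), Apln (-0.26), Vip (-0.63) and Grp (-0.85). Several of these, Sst, Npy, Vip and Crh among them, are also made by interneurons of the cortex. The intervals are wide: the standard error was 0.30 for Cartpt and 0.31 for Grp.

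Among the 9 peptides that fell under the brightness limit, 2 were high in the same 4 pieces. A fit with no filter on dim probe sets called 81 of 15865 higher and 96 lower. In that fit Ghrh, Gnrh1, Nmu, Npvf, Pomc, Ucn and Ucn2 did not pass, with differences from -0.0012 to 0.58. Trh, thyrotropin-releasing hormone, was at 7.60, 7.18, 7.48 and 8.06 in the Oxt-rich pieces, against 3.43, 4.06 and 7.04 as the lowest, median and highest of the Oxt-poor pieces, with no overlap. With no filter on dim probe sets its difference was 3.15 ± 0.58 (limma, adjusted p = 0.00237), a size that depends on the floor, since 7 of the 35 Oxt-poor pieces lay on it. Hcrt, the orexin precursor of the lateral hypothalamus, was at 7.70, 8.31, 7.02 and 7.69 in the Oxt-rich pieces, against 4.21, 5.68 and 7.07 in the Oxt-poor pieces, where 1 piece lay above the lowest Oxt-rich one. Its difference without the filter was 2.21 ± 0.53 (limma, adjusted p = 0.0239). Pomc, the precursor of melanocortins in the arcuate nucleus, stayed near the floor of 3.43 in both groups, at 3.92, 3.52, 3.54 and 3.88 in the Oxt-rich and up to 4.34 in the Oxt-poor pieces.

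**Figure D3:**
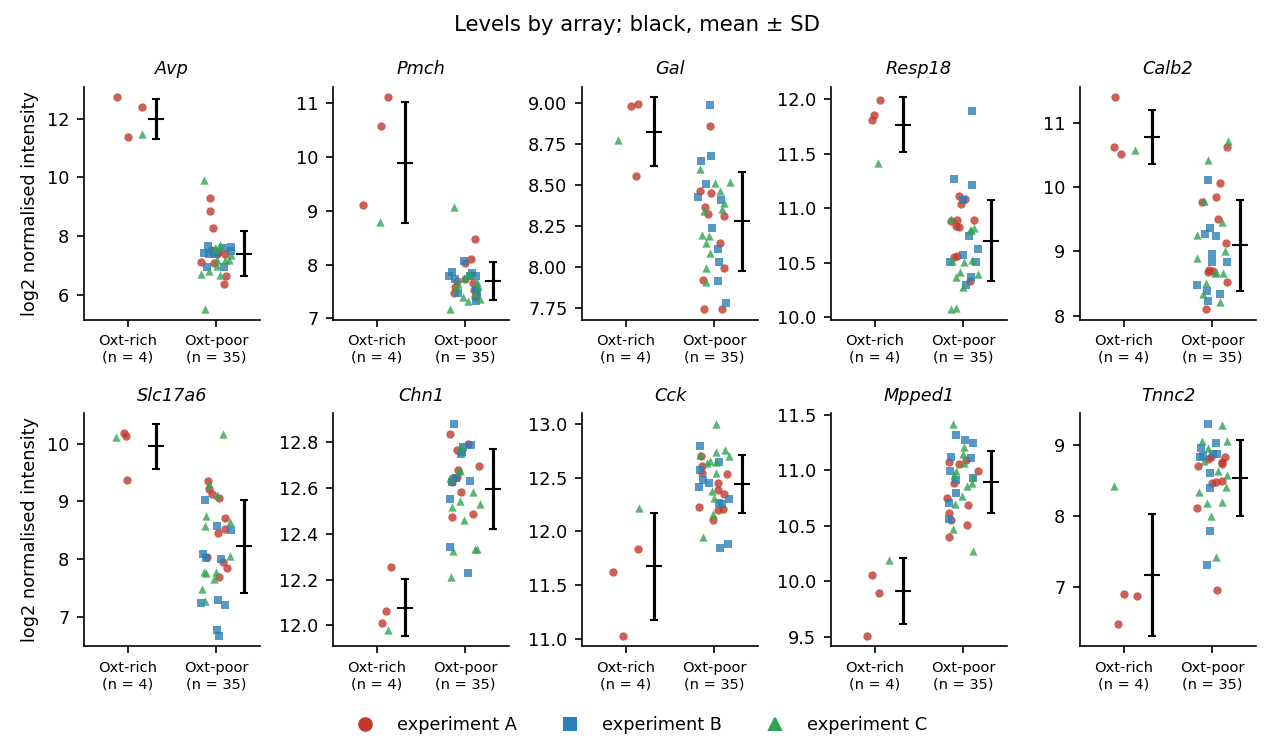
Log2 normalised intensity of 10 genes in each Oxt-rich piece (left in each panel, n = 4) and each Oxt-poor piece (right, n = 35), with colour and marker for the experiment and black bars for mean ± SD; each panel has its own y axis. Avp does not overlap between the groups, Pmch overlaps by 1 Oxt-poor piece, and Mpped1 lies lower in all Oxt-rich pieces.

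Resp18, a protein of dense-core secretory granules in neuroendocrine cells, was at 12.00, 11.85, 11.81 and 11.41 in the Oxt-rich pieces, against 10.08, 10.63 and 11.90 in the Oxt-poor pieces, where 1 piece lay above the lowest Oxt-rich one. Its difference was 1.02 ± 0.17 (limma, adjusted p = 0.000761). Trhr, a receptor for thyrotropin-releasing hormone, was at 9.74, 7.81, 9.22 and 7.74 in the Oxt-rich pieces, against 7.16, 7.56 and 8.11 in the Oxt-poor pieces. The rise of Trhr, 0.98 ± 0.20 (limma, adjusted p = 0.00312), came mainly from A 50 mg/kg animal 3 and A 1 mg/kg animal 2, and 8 Oxt-poor pieces lay above the lowest Oxt-rich one. Calcr, the calcitonin receptor, was higher by 0.78 ± 0.15 and Hap1, the huntingtin-associated protein abundant in the hypothalamus, by 0.64 ± 0.12 (limma, adjusted p = 0.00232 and 0.00219). In all, 5 of 16 tested members of the list of hypothalamic transcription factors and receptors rose and 0 fell, with a median of 0.24. Over all probe sets 0.864% rose and 1.21% fell. The 5 were the receptors Trhr and Calcr, with Resp18, Hap1 and Zcchc12, as the list is wider than its name. Of the 16, 10 were above 0 and 6 below, among the latter the transcription factors Arnt2 (-0.23) and Pou3f1 (-0.74), which did not pass. This list holds 49 genes, of which 31 were on the array and 15 were too dim to test. Of the dim ones, Six3 and Rax lay on the floor in all 4 Oxt-rich and all 35 Oxt-poor pieces. Otp lay on it in 3 Oxt-rich and 33 Oxt-poor pieces. With no filter on dim probe sets, Nkx2-1 differed by 0.85 and Isl1 by 0.78, and neither passed (limma, adjusted p = 0.242 and 0.366).

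Among granins and prohormone processing genes, 3 of 20 rose and 2 fell, against 0.864% and 1.21% of all probe sets, with a median of 0.010. Scg2, secretogranin II, was at 11.68, 11.48, 11.49 and 11.18 in the Oxt-rich pieces, against 9.82, 10.59 and 11.68 in the Oxt-poor pieces, and was higher by 0.79 ± 0.19 (limma, adjusted p = 0.0165). Qpct, the glutaminyl cyclase that modifies the ends of peptide hormones, was higher by 0.91 ± 0.23 (limma, adjusted p = 0.0227), and Resp18 is also in this list. Pcsk2, a prohormone convertase, differed by -0.46 and Sort1, the sorting receptor sortilin, by -0.35 (limma, adjusted p = 0.0368 and 0.0156).

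Imprinted neuronal genes, which are expressed from 1 parental copy and many of which are strong in the hypothalamus, had a median difference of 0.38. Of the 16 tested, 14 were above 0 and 4 were called higher, against 51% and 0.864% of all probe sets. Ndn, necdin, was at 12.11, 11.87, 11.99 and 11.75 in the Oxt-rich pieces, against 11.30, 11.52 and 11.88 in the Oxt-poor pieces. Its difference was 0.40 ± 0.07 (limma, adjusted p = 0.00161), with 1 Oxt-poor piece above the lowest Oxt-rich one. Nap1l5 rose by 0.62 ± 0.11, Grb10, an adaptor of insulin receptor signalling, by 0.68 ± 0.14, and Calcr is the remaining member called. Nnat, neuronatin, differed by 1.01 ± 0.29 and did not pass (limma, adjusted p = 0.0522).

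Of 14 tested genes that are strong in the thalamus, which lies next to the hypothalamus, 3 rose and 0 fell, with a median of 0.29. Over all probe sets 0.864% rose and 1.21% fell. Slc17a6, the vesicular glutamate transporter of subcortical neurons, was at 10.19, 9.37, 10.13 and 10.11 in the Oxt-rich pieces, against 6.67, 8.06 and 10.17 in the Oxt-poor pieces, where 1 piece lay above the lowest Oxt-rich one. Its difference was 1.48 ± 0.38 (limma, adjusted p = 0.0276). Calb2, calretinin, a calcium-binding protein that is also a marker of interneurons and of the olfactory bulb, was higher by 1.56 ± 0.36 and Tcf7l2, a transcription factor of Wnt signalling, by 0.98 ± 0.25 (limma, adjusted p = 0.0132 and 0.0298). The Tcf7l2 level was highest in C vehicle animal 3, at 9.48, against 8.27, 8.45 and 8.81 in the other Oxt-rich pieces. Zic1, of the same list, differed by 0.36 (limma, adjusted p = 0.281).

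Further genes with large differences had other known roles. Nr2f2 is an orphan nuclear receptor of the developing and adult forebrain. It was at 10.38, 8.83, 10.31 and 8.51 in the Oxt-rich pieces, against 6.13, 7.43 and 9.04 in the Oxt-poor pieces. Its difference was 1.60 ± 0.30 (limma, adjusted p = 0.00182), and another probe set of the gene differed by 0.87. Agt, the angiotensinogen made by astrocytes, was at 11.16, 10.82, 10.90 and 10.25 in the Oxt-rich pieces, against 8.40, 9.51 and 10.23 in the Oxt-poor pieces, with no overlap and a difference of 1.11 ± 0.24 (limma, adjusted p = 0.00555). Agt was the only called gene of 22 astrocyte markers, whose median was 0.083, against 0.864% of all probe sets called higher. The list of the 15 largest rises by the rule for named genes was completed by 6330403K07Rikl (1.46), Nat8f5 (1.15), the potassium channel Kcnj16 (1.02), Zcchc12 (1.01), the cell adhesion protein Amigo2 (0.99) and Cpne2 (0.98). Tekt1, a protein of motile cilia, was higher by 0.96 ± 0.26 (limma, adjusted p = 0.0346). It was the only 1 of 8 ependyma and tanycyte markers called, again against 0.864% of all probe sets called higher.

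Complete separation was rare: all 4 Oxt-rich pieces lay above all 35 Oxt-poor pieces for 12 of 11105 probe sets (0.108%) and below for 2 (0.018%). The 12 above were Avp, Agt, Kcnj16, Amigo2, Igsf1, Slco3a1, Minar2, Arxes1, Esd, St13, Tmem248 and a probe set with no single symbol, and 11 of them were called. The gap was 1.45 for Avp and 0.168 or less for the others. Of the 2 below, Mpped1 was named and both were called. By the rule on correlation with log2 Oxt over the 39 arrays, in which the 4 Oxt-rich arrays carry the range, the genes with the highest positive values were Avp (r = 0.92), Pmch (0.83), 6330403K07Rikl (0.73), Ndn (0.72), Kcnj16 (0.71), Hap1 (0.71), Amigo2 (0.70) and Slco3a1 (0.70).

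Of 31 tested genes of cortical pyramidal neurons, 8 fell and 0 rose, 29 had a difference below 0, and the median was -0.37. Over all probe sets 1.21% fell, 0.864% rose and 51% had a difference above 0. Within A the median was -0.36 and within C -0.41. Chn1, a chimaerin that regulates Rac in neurons, was at 12.06, 12.01, 12.26 and 11.98 in the Oxt-rich pieces, against 12.21, 12.63 and 12.88 as the lowest, median and highest of the Oxt-poor pieces. Only 2 Oxt-poor pieces lay below the highest Oxt-rich one, and the difference was -0.54 ± 0.09 (limma, adjusted p = 0.000459). Cck, the cholecystokinin of many cortical neurons, was at 11.03, 11.62, 11.84 and 12.22 in the Oxt-rich pieces, against 11.85, 12.45 and 13.00 in the Oxt-poor pieces, a difference of -0.74 ± 0.15 (limma, adjusted p = 0.00293). Cux2, a transcription factor of the upper cortical layers, differed by -0.77 ± 0.16 and Mef2c, an activity-linked factor of cortical neurons, by -0.60 ± 0.14 (limma, adjusted p = 0.00441 and 0.00962). The other members called were Stx1a (-0.71), Lingo1 (-0.65), Kcnh3 (-0.44) and Kcnv1 (-0.42). Tbr1, a deep-layer transcription factor, differed by -0.89 ± 0.25 and did not pass (limma, adjusted p = 0.0519), nor did Slc17a7, at -0.51 ± 0.19 (limma, adjusted p = 0.181). In bulk tissue, fewer cells of a type and less RNA per cell cannot be told apart.

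The largest falls by the rule were of other kinds. Mpped1 was at 9.51, 10.05, 9.89 and 10.19 in the Oxt-rich pieces, against 10.27, 10.93 and 11.42 in the Oxt-poor pieces, with no overlap and a difference of -0.89 ± 0.14 (limma, adjusted p = 0.000459). Hs3st2, an enzyme that sulphates heparan sulphate, was at 7.41, 7.98, 7.99 and 9.10 in the Oxt-rich pieces, against 8.53, 9.43 and 10.05 in the Oxt-poor pieces, a difference of -1.20 ± 0.21 (limma, adjusted p = 0.000889). For Tnnc2, the calcium sensor of fast muscle, the Oxt-rich pieces were at 6.91, 6.49, 6.88 and 8.42, against 6.96, 8.71 and 9.29 in the Oxt-poor pieces. The 3 Oxt-rich pieces of A lay below every Oxt-poor piece and that of C did not, so that the Tnnc2 difference was -1.71 within A and -0.11 within C. Tnnc2 was the only member called of 6 tested fast muscle genes, whose median was -0.11, against 1.21% of all probe sets called lower. Kcns1, a modifier subunit of potassium channels, differed by -1.66 ± 0.41 (limma, adjusted p = 0.0208), the largest fall by the rule, which reads each gene from its brightest probe set. The others were Col19a1 (-1.38), Olr59 (-1.37), Dact2 (-0.88), Mlip (-0.85), Cabp1 (-0.81), Vxn (-0.80), Slc24a2 (-0.72) and Rasl10a (-0.66).

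Immediate early and activity-regulated genes, which are switched on within minutes of neuronal firing, had 7 of 20 members called lower and 0 higher. In this list 19 were below 0, and the median was -0.47. Over all probe sets 1.21% were called lower and 51% were above 0. The median was -0.59 within A and -0.079 within C. Arc, which acts at synapses, was at 8.73, 9.59, 8.75 and 9.91 in the Oxt-rich pieces, against 9.43, 10.11 and 11.30 in the Oxt-poor pieces. Its difference was -0.94 ± 0.25 (limma, adjusted p = 0.0307), made up of -1.36 within A and 0.12 within C. Egr1, a zinc finger factor, differed by -0.48 ± 0.12 (limma, adjusted p = 0.0234), with -0.69 within A and 0.052 within C. Both were low in the A pieces, where A 1 mg/kg animal 2 had about the same Arc level as A 50 mg/kg animal 3. Without the 50 mg/kg arrays the difference was -0.76 ± 0.33 for Arc and -0.41 ± 0.16 for Egr1 (limma, adjusted p = 0.836 and 0.641). Homer1, a scaffold of glutamate receptors whose short form is induced by activity, differed by -0.47 ± 0.08 (limma, adjusted p = 0.000761), and its other 4 probe sets ran from -0.39 to -1.84. Of these 4, the dimmest, at -1.84 ± 0.41, was also called (limma, adjusted p = 0.00962). The remaining members called were Dusp1 (-0.79), Ier5 (-0.59), Egr4 (-0.47) and Klf10 (-0.47).

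Genes of synaptic release had a difference below 0 in 21 of 24 cases, with a median of -0.18, and 2 fell: Stx1a, a SNARE protein, and Bsn, a scaffold of the active zone that differed by -0.43 ± 0.11 (limma, adjusted p = 0.0303). Among glutamate receptors and transporters, the AMPA receptor subunit Gria3 fell by 0.51 (limma, adjusted p = 0.0394) and Homer1 also counted, while Slc17a6 was the member that rose, 1 higher and 2 lower of 20. Genes that all neurons share had a median of -0.091 over 15, with 0 called and 2 at an unadjusted p under 0.05 by limma. For these 3 lists the shares over all probe sets were 0.864% called higher, 1.21% called lower and 51% with a difference above 0. An unadjusted p under 0.05 by limma was found for 13.5% of all probe sets.

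**Figure D4:**
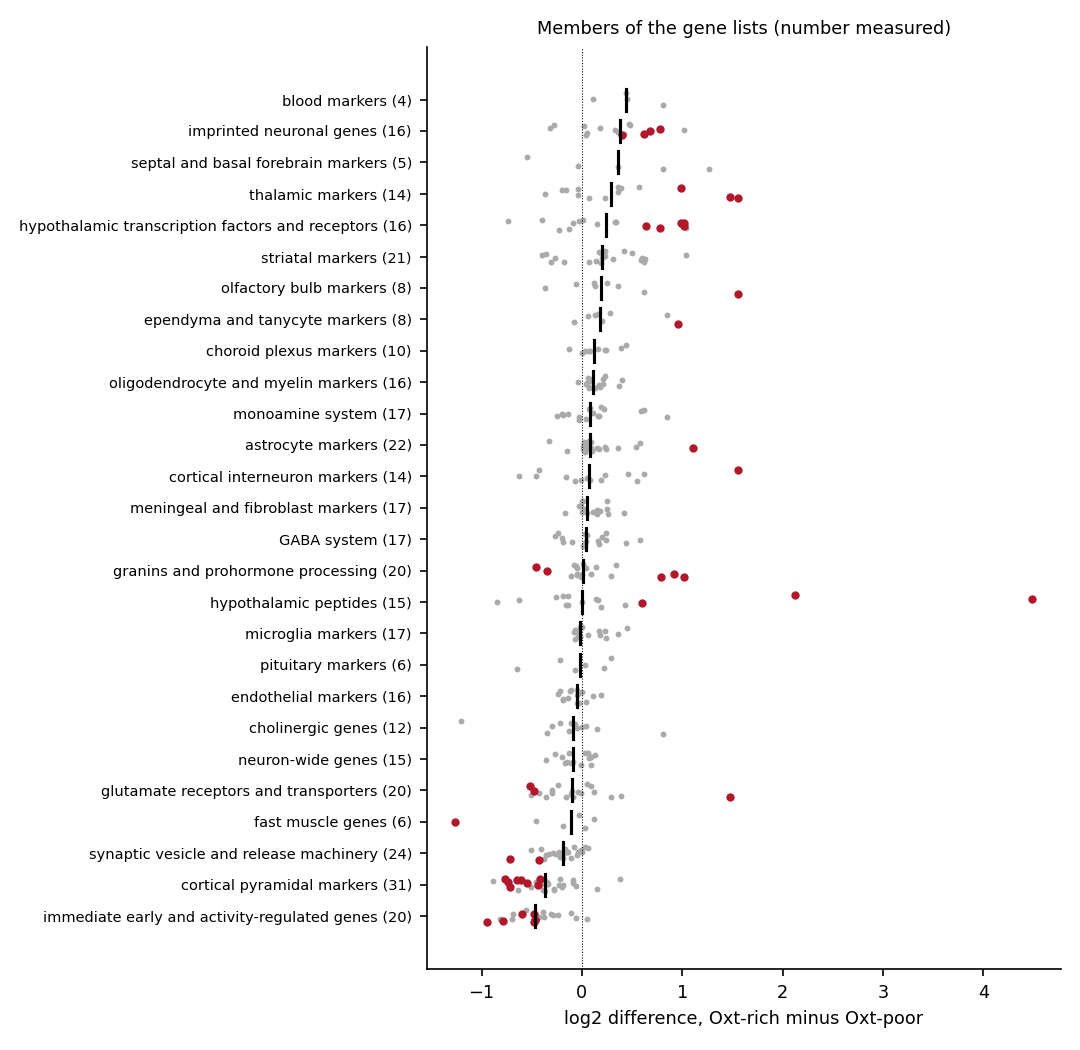
Log2 difference of Oxt-rich minus Oxt-poor pieces for the measured members of each gene list, with members at an adjusted p under 0.05 in red, others in grey and the list median as a black bar; the number measured is in brackets. Cortical pyramidal and immediate early lists have the lowest medians, at -0.37 and -0.47, and the hypothalamic peptide list holds the 2 largest differences.

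In 13 of 27 lists no member passed limma: striatal, septal and basal forebrain, pituitary, choroid plexus, oligodendrocyte and myelin, microglia, endothelial, meningeal and fibroblast, blood, GABA, monoamine, cholinergic and neuron-wide genes. Of their 169 distinct members tested, 18 had an unadjusted p under 0.05 by limma (10.7%), against 1495 of all 11105 probe sets (13.5%). The lists were unequal in this. Septal and basal forebrain genes had 4 of 5, 3 higher and 1 lower, and cholinergic genes 5 of 12, 1 higher and 4 lower. Pituitary, choroid plexus, myelin, microglia, endothelial and meningeal genes had 0. The striatal median was 0.20, from 0.051 within A and 0.55 within C, and the summed intensity of the list was 12089 to 35560 in Oxt-rich and 9253 to 56832 in Oxt-poor pieces. Myelin genes had a median of 0.11, with -0.11 within A and 0.68 within C. The part of these cell types in the differences above was not tested.

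The 2 experiments that held Oxt-rich pieces share no arrays, so the direction of each difference could be read in both. Within A alone 269 probe sets were called (2.42%), 100 higher and 169 lower. Within C alone 1 was called (0.009%), since that experiment held 1 Oxt-rich piece, which was assumed to vary like the other arrays. Of the 269 called in A, 229 had the same sign in C (85.1%), against 57.6% of all 11105 probe sets. The sign held for 91 of the 100 higher (91%) and for 138 of the 169 lower (81.7%). The medians for the higher set were 0.62 in A and 0.30 in C, and for the lower set -0.55 in A and -0.25 in C.

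**Figure D5:**
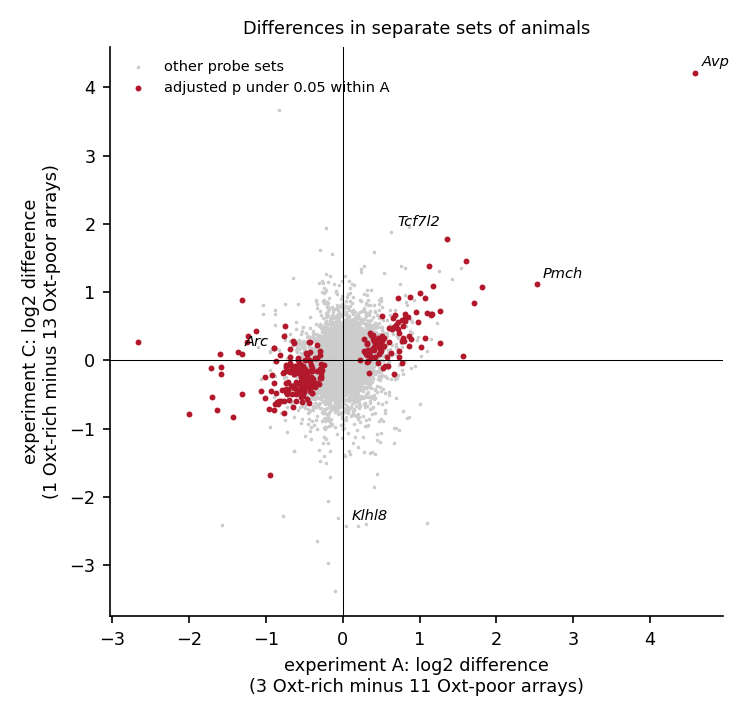
Log2 difference of Oxt-rich minus Oxt-poor pieces within experiment A (x axis, 3 against 11 arrays) and within experiment C (y axis, 1 against 13 arrays), 1 point per probe set, with the 269 called within A in red. Avp and Pmch lie in the upper right, Arc crosses to a small positive value in C, and Klhl8 lies at -2.42 in C and 0.036 in A.

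The difference itself was tested between the experiments as a contrast, C minus A. It was called for 1 probe set (0.009%), of Klhl8, with 450 of 11105 at an unadjusted p under 0.05 by limma. Since C holds 1 Oxt-rich piece, a difference between experiments and a deviant value in that piece cannot be told apart. Arc and Tnnc2 were not among the calls, so that their unequal values in A and C were not shown to differ.

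Among the Oxt-poor pieces, the 3 nearest to the limit carried the most Avp, and the next in order did not follow. The Oxt ratio was 1.72 in 1 mg/kg animal 4 of C, 1.58 in vehicle animal 2 of A and 0.943 in 50 mg/kg animal 2 of A. Avp in these pieces was 9.93, 9.31 and 8.84, the 3 highest of the 35. Pmch was highest of the 35 in 1 mg/kg animal 4 of C, at 9.07, and next in 50 mg/kg animal 2 of A, at 8.49. It was 7.69 in vehicle animal 2 of A. The next piece by Oxt ratio, 10 mg/kg animal 2 of C at 0.777, had Avp at 6.70, under the Oxt-poor median of 7.39. Its Pmch, at 7.17, was the lowest of the 35.

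No single Oxt-rich piece made all the calls, although 1 weighed heavily. Without A 50 mg/kg animal 3, 40 probe sets were called, 19 higher and 21 lower. Without A 50 mg/kg animal 4 they were 61 higher and 70 lower. A set of 36 calls held without each Oxt-rich piece in turn, 19 higher and 17 lower. Named among the higher ones were Avp, Pmch, Resp18, 6330403K07Rikl, Amigo2, Igsf1, Slco3a1, Calcr, Nap1l5, Ndn, Minar2 and Arxes1, and among the lower ones Mpped1, Chn1, Hs3st2, Mlip, Rasl10a and Homer1. The other called genes named above lost the call without at least 1 of the 4 pieces. The difference moved by over 1.5 times for Olr59, at -0.69 without A 50 mg/kg animal 3, Col19a1, at -0.79 without A 50 mg/kg animal 4, Trhr, at 0.65 without A 50 mg/kg animal 3, and Tcf7l2, at 0.63 without C vehicle animal 3. The calls of Gal, Slc24a2, Gria3 and Tekt1 also ended without some of the Oxt-poor pieces of A, among them vehicle animal 2 for Gal, Slc24a2 and Tekt1 and vehicle animals 3 and 4 for Gria3.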

How the data were processed

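Each deposited value is the intensity of a probe set on a linear scale. The sources used here name no summarization software. Per the labels' protocols, 15 ug of total RNA was labelled with biotin. The table holds 15923 probe sets, 57 of them controls. An array was kept if its median correlation of log2 intensity, floored at 16, with the other arrays was 0.5 or more; 7 arrays were at about 0 with all kept ones and were not used. In the platform annotation, 12783 non-control probe sets have 1 gene symbol, 312 have several and 2771 have none.

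Array medians were equalized, values under the 5th percentile (10.8) were raised to it, and quantile normalization followed the log2 step. Probe sets with a mean under the 30th percentile were left out. limma 3.58.1 (R 4.3.3) fitted Oxt group and experiment, with eBayes, trend=TRUE and Benjamini-Hochberg adjustment at 0.05 over 11105 probe sets. The fit was also run on simulated data with independent errors. Those data held no dose effect and no correlation between genes, so they cannot test how either bears on the calls. Tests are two-sided; the number of arrays limits precision.

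Groups, 27 gene lists and the rule for named genes were chosen with earlier results of these data known. The rule takes the 15 largest called rises and falls with the same direction in A and C, up to 4 members per list by smallest p, every tested peptide, and the 8 genes best correlated with Oxt; the other genes named were chosen after their values were seen.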

Additional observations from a re-analysis of the deposited data

Results flagged for a closer look

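A value lay far from the other 3 Oxt-rich pieces, by Dixon's test, for 5 of 49 called genes, where chance gives about 1 in 20. In A 50 mg/kg animal 4, Calb2 was high at 11.39, Slc17a6 low at 9.37 and Col19a1 low at 3.98. Olr59 was low in A 50 mg/kg animal 3, at 4.61, and Calcr was low in C vehicle animal 3, at 7.82.

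For a Klhl8 probe set, the contrast of the Oxt-rich effect in C minus that in A was -2.46 ± 0.35 (limma, adjusted p = 0.00147). It rests on 1 Oxt-rich array in C, so a deviant value in that array and a difference between experiments cannot be told apart. That probe set was at 5.92 in the Oxt-rich piece of C, against 7.91 to 8.76 in the Oxt-poor pieces of C, and at 8.21 to 8.66 in the Oxt-rich pieces of A, against 7.46 to 8.91 in the Oxt-poor pieces of A. The other Klhl8 probe set differed by -0.093 between the experiments (limma, adjusted p = 1).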

How the results depend on the processing

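The counts of probe sets called higher and lower were 96 and 134. They were 3 and 1 with dose as a factor, 2 and 0 without the 50 mg/kg arrays (611 at an unadjusted p under 0.05 by limma), 1 and 1 without experiment A, and 10 and 27 with a limit of 16, which leaves 1 Oxt-rich array. They were 221 and 281 with array weights, 161 and 192 with log2 Oxt as a number, and 74 and 74 without quantile normalization. Leaving out each array in turn gave 19 to 109 higher and 21 to 163 lower, both lowest without A 50 mg/kg animal 3. The count of effects that differed between experiments was 1, with 12 when dim probe sets were kept, and 1 to 2 when each array was left out. They were 106 and 167 without the arrays labelled as a repeat. All other alternatives kept both counts within 1.5 times, 2 of which, without B vehicle animal 3 and without C 1 mg/kg animal 1, were chosen after seeing the data.

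With animal number within experiment as a replicate block the counts were 93 and 125, and 1 effect differed between experiments. Arrays with the same number had a median correlation of -0.094 in their deviations, against -0.084 for other pairs, so the number does not pair the arrays.

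Of the 49 called genes named, 2 stayed called with dose as a factor, 2 without the 50 mg/kg arrays, 1 without experiment A, and 5 at the limit of 16; 41 to 49 did so in the other alternatives, and all 35 bright enough at the 50th percentile. None of the 49 changed sign with dose as a factor or without the 50 mg/kg arrays, where Nr2f2 was 1.67, Slc17a6 1.73, Resp18 0.96, Amigo2 0.92 and Mpped1 -0.81. Without experiment A the sign turned for Arc (0.12), Egr1 (0.052), Cartpt (-0.024), Tac3 (-0.062), Crh (0.33) and Adcyap1 (-0.34). Crh also turned without the 50 mg/kg arrays (0.15), and its leave-one-out values ran from -0.32 to 0.062. Npy (0.15) and Prlh (0.085) turned at the limit of 16. Adcyap1 was -0.017 with dose as a factor and -0.017 with log2 dose, -0.0278 with log2 Oxt, -0.00157 without the arrays labelled as a repeat and -0.089 without the 50 mg/kg arrays, and ran from -0.061 to 0.14 when each array was left out. The cause was not tested. The median of several Oxt probe sets could not be taken, since there is 1. A fit of the vehicle arrays alone, which hold 1 Oxt-rich piece, was not run. The contrast between experiments was not run with dose as a factor or with log2 Oxt. It could not be fitted at the limit of 16, or without A, C or C vehicle animal 3.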
